A study of Mus musculus with 6 samples.

Results

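Transforming growth factor beta (TGF-beta) signaling genes were followed in differentiated cultures of brown preadipocytes with and without the microprotein MICT1. The 10 genes are the ligands Tgfb1, Tgfb2 and Tgfb3, the activin subunit Inhba, the receptors Tgfbr1, Tgfbr2 and Tgfbr3, the receptor-activated SMADs Smad2 and Smad3, and the inhibitory SMAD Smad7. They were taken by symbol from a deposited table of 13283 genes, and all 10 were found in it. The RNA came from a single immortalized mouse brown preadipocyte line (BAT cells) that stably expressed Cas9. Control cells carried a scrambled guide RNA (Scr, n = 3, genotype labelled WT), and MICT1 KO cells (n = 3) were pools made with guides against MICT1 and sorted for GFP. The methods describe 2 guides, and the labels do not tell which pool each MICT1 KO library came from. All 6 cultures were differentiated with rosiglitazone, indomethacin, insulin, IBMX, T3 and dexamethasone and received 10 µM forskolin, which activates adenylyl cyclase, for 6 h on day 6. No unstimulated culture was analysed here, so a level before forskolin is not known. The comparison asked how loss of MICT1 changed gene expression in these stimulated cells. The level of MICT1 itself was not analysed here.

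TGF-beta is secreted in a latent complex and, once released, binds TGFBR2, a kinase that then activates TGFBR1. The co-receptor TGFBR3 (betaglycan) presents ligand to this pair. TGFBR1 phosphorylates SMAD2 and SMAD3, which join SMAD4 and enter the nucleus, and SMAD7 blocks the receptor as a negative feedback. Inhba encodes the subunit of activin A, which reaches the same SMADs through its own receptors. TGF-beta and activin are known for holding preadipocytes back from becoming adipocytes.

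Values are given as normalized values, the estimated reads of a gene divided by a size factor of the library. The libraries held 15440309 to 17917646 estimated reads in all. Tgfb2, with normalized values of 49.1 to 79.0, rested on few reads per library and Inhba, with 5994 to 14712, on many. The rRNA gene Rn45s took 1.92% of the values in Scr replicate 2 and 0.507% to 0.831% in the others. No library was left out.

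In MICT1 KO cells the ligand and receptor genes moved in opposite directions. Inhba, Tgfb1, Tgfb3 and Smad7 rose, all 3 receptors and both receptor-activated SMADs fell, and Tgfb2 did not pass the test. By limma-trend, a linear model of log2(value + 1) that pools the estimate of the spread over genes, 9 of the 10 genes had an adjusted p (Benjamini-Hochberg) under 0.05, where 56.9% of the 12507 genes tested did. Of these, 4 were higher against a background of 28.5%, and 5 were lower against 28.3%. The libraries of the groups did not overlap for 9 of the 10 genes, against 62.0% of all genes tested. So many genes changed between these groups that a call is not in itself particular to this pathway. The median log2 fold change (MICT1 KO over Scr) was 0.03 over the 10 genes and -0.01 over all genes tested, with falls and rises of similar number. Inhba was the only 1 of the 10 to change at least 2-fold, as 1719 of all genes tested did. Smad2 and Tgfbr2 had smaller changes than most, since 40.3% and 40.7% of all genes tested changed less on the log2 scale.

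**Figure D1:**
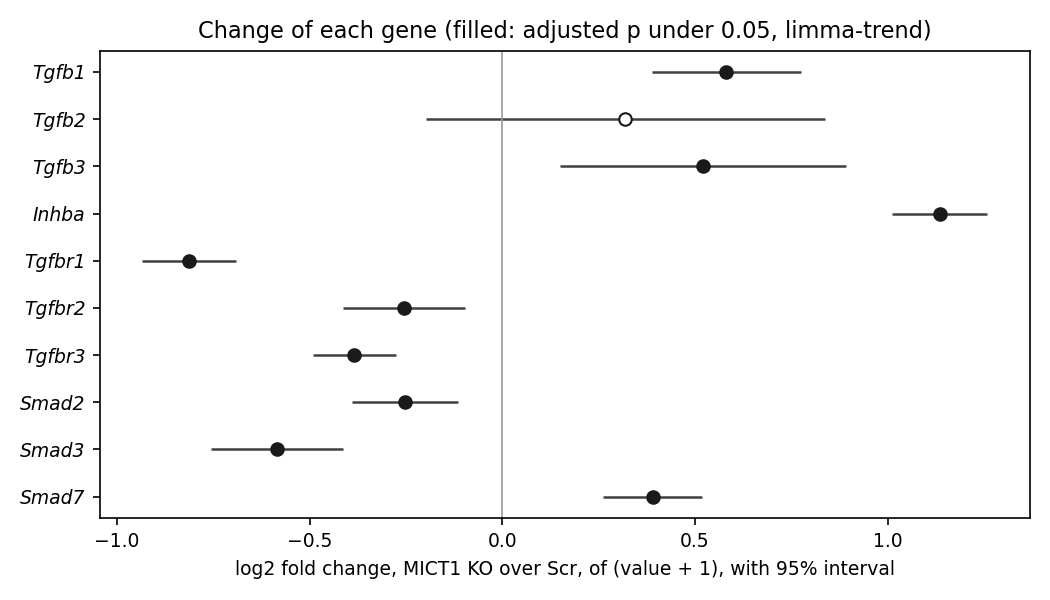
Log2 fold change of each gene on the log2(value + 1) scale, MICT1 KO over Scr, with 3 libraries per group. Points are limma estimates, lines are 95% intervals and filled points have an adjusted p under 0.05. Inhba lies highest at 1.13, Tgfbr1 lowest at -0.81, and the interval of Tgfb2 alone includes 0.

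Markers of adipocytes moved with these results. Of 10 adipocyte markers, 9 were in the table and all 9 were lower in MICT1 KO, with a summed level of 7320 to 8848 CPM (the value scaled to the library sum) in Scr and 892 to 1289 in MICT1 KO libraries. Fabp4, a fatty acid binding protein of adipocytes, was at a mean normalized value of 53343 in Scr and 5461 in MICT1 KO libraries. Adipoq, which encodes adiponectin, was at 624 in Scr and 5.32 in MICT1 KO libraries. Ucp1, the uncoupling protein of brown fat, was at a mean normalized value of 25.1 in Scr and 4.10 in MICT1 KO libraries. Cidea is not among the listed genes, and since the table holds no value of 0 in any library, its level in Scr libraries is not known. Of 8 preadipocyte or fibroblast markers tested, 4 were higher (Pdgfrb, Ly6a, S100a4 and Twist2) and 3 lower (Pdgfra, Dlk1 and Col6a1). Some moved strongly, with S100a4 5.99-fold higher and Dlk1 10.8-fold lower in MICT1 KO. The 9 in the table summed to 3208 to 3598 CPM in Scr and 2733 to 3135 CPM in MICT1 KO libraries. Vim and Col6a1 were the highest of them, so the sum mostly follows these genes. For other cell types, 4 of 10 macrophage markers were in the table (16.6 to 23.1 CPM in Scr and 31.8 to 39.2 CPM in MICT1 KO libraries, with Cd14 higher), 2 of 10 endothelial markers (3.66 to 6.39 and 6.03 to 8.03 CPM, with Cdh5 higher) and 4 of 10 muscle markers (6.08 to 6.77 and 6.63 to 8.82 CPM, none called). The defining genes Adgre1, Ptprc, Pecam1, Kdr, Myod1 and Myog were not among the listed genes either, which does not show them to be at 0 in every library. The part that these marker levels have in the levels of the TGF-beta genes was not tested. In bulk RNA, fewer adipocytes and less RNA of a gene per adipocyte cannot be told apart.

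Promoter windows, the 250 bases before the RefSeq transcription start (GRCm38.p6), were at hand for 6 of the 10 genes. The 4 printed here are those of the gene that rose most (Inhba), the main TGF-beta ligand (Tgfb1), the ligand that did not pass the test (Tgfb2) and the gene that fell most (Tgfbr1). They are written 5′ to 3′ on the strand of the gene, and capitals mark matches on either strand to the motifs searched.
Inhba (chr13:16011601-16011850, plus strand): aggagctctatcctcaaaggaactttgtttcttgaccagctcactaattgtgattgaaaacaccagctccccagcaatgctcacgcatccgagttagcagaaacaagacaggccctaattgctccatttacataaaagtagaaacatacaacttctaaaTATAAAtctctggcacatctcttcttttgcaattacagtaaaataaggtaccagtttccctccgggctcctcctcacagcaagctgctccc
Tgfb1 (chr7:25686752-25687001, plus strand): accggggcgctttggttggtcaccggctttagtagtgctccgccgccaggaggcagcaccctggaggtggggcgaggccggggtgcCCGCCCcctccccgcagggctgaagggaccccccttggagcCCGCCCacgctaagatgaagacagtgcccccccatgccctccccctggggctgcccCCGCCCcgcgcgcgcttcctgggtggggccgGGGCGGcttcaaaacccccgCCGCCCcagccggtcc
Tgfb2 (chr1:186705990-186706239, minus strand): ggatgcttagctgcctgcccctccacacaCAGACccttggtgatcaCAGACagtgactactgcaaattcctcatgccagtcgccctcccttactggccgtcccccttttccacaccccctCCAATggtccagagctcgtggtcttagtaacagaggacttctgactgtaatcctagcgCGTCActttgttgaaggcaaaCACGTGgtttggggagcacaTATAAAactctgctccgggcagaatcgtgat
Tgfbr1 (chr4:47352972-47353221, plus strand): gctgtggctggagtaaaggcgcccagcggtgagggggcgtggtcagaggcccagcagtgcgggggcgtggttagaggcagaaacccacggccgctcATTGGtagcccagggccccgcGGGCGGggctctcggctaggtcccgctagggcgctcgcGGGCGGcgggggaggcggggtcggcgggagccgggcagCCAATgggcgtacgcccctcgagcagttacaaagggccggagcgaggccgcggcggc
The motifs were the cAMP response element TGACGTCA, its core TGACG, AP-1 TGANTCA, the SMAD box CAGAC, the TATA box TATAAA, the E-box CACGTG, the GC box GGGCGG and the CCAAT box. A full cAMP response element contains its core, and no other motif here contains another. They occurred in 2.51%, 26.3%, 4.58%, 40.6%, 6.67%, 8.28%, 57.2% and 35.9% of 13410 windows from 10578 genes of the table. The Inhba window held a single match, a TATA box starting 91 bases before the start, and had a GC content of 43.2%. The Tgfb1 window held 5 GC boxes at a GC content of 75.2%. In the Tgfb2 window there was the core of a cAMP response element 72 bases before the start, an E-box at 51, a TATA box at 31, a CCAAT box at 130 and SMAD boxes at 221 and 204. The Tgfbr1 window held 2 GC boxes and 2 CCAAT boxes and had a GC content of 74.8%. The quartiles over all windows were 52.8% and 66.8% GC, so Inhba lay below and Tgfb1 and Tgfbr1 above that range. Among the windows not printed, Smad3 had 2 GC boxes, and Tgfbr2 had a SMAD box and 2 CCAAT boxes. No full cAMP response element and no AP-1 match was in these 6 windows, which says only that the letters are not there. A second RefSeq start of Tgfbr1, farther into the gene, held a SMAD box.

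Among the ligands, Inhba showed the largest rise. Its normalized values were 6011, 6187 and 5994 in the Scr cultures, compared with 12347, 14712 and 12984 after knockout. Every MICT1 KO library lay above every Scr library, and the lowest of them was about as far from the Scr values as those values were from 0. The mean rose 2.20-fold, from 6064 ± 107 to 13347.5 ± 1224 (SD, n = 3 per group). The log2 fold change was 1.13 (SE 0.060; adjusted p = 1.05e-12, limma-trend), which is larger in size than that of 88.2% of all genes tested. Inhba lies at chr13:16011851-16031621 on the plus strand (GRCm38, GENCODE vM21). An antisense gene (Gm48444) and a pseudogene (B230303A05Rik) lie on the other strand there. The libraries were made to keep strand according to the methods, but the strand setting of the counting is not given in the sources used here.

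Tgfb1, the most abundant of the TGF-beta ligands here, had normalized values of 549.9, 470.0 and 539 in the Scr cultures, compared with 859.9, 739.6 and 736 after knockout. The groups did not overlap, and the highest MICT1 KO value stood above the other MICT1 KO values by more than the whole range of the Scr group. Its mean rose 1.498-fold, from 519.7 ± 43.4 to 779 ± 70.5 (SD, n = 3), with a log2 fold change of 0.58 (SE 0.093; adjusted p = 1.96e-05, limma-trend). The gene spans chr7:25687002-25705077 on the plus strand, with no other annotated gene across it.

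Tgfb3 had 152, 106 and 126 in the Scr cultures, compared with 180.2, 156 and 215 after knockout. The groups stood apart by a small margin, since the highest Scr value nearly reached the lowest MICT1 KO value. The mean was 128 ± 23.4 in Scr and 184 ± 29.5 in MICT1 KO libraries (SD, n = 3), 1.43-fold higher, with a log2 fold change of 0.52 (SE 0.18; adjusted p = 0.0172, limma-trend). This call rested on single libraries. Without Scr replicate 2 the log2 fold change was 0.39 (adjusted p = 0.0960, limma-trend), and without MICT1 KO replicate 3 it was 0.40 (adjusted p = 0.0979, limma-trend). Tgfb3 lies at chr12:86056745-86079041 on the minus strand, where the protein-coding gene Ttll5 crosses it on the other strand. Ttll5 itself had a log2 fold change of -0.05 (adjusted p = 0.791, limma-trend).

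Tgfb2 was the least abundant of the 10 genes, with 51.4, 49.1 and 65.1 in the Scr cultures, compared with 57.2, 79.0 and 71.5 after knockout. The groups overlapped, because Scr replicate 3 lay above MICT1 KO replicate 1. Means were 55.2 ± 8.65 and 69.2 ± 11.1 (SD, n = 3), and the log2 fold change of 0.32 had a 95% interval from -0.20 to 0.84 (adjusted p = 0.285, limma-trend). That interval includes no change as well as rises as large as those of Tgfb1 and Tgfb3. The gene covers chr1:186622792-186705989 on the minus strand, and a snoRNA and an antisense gene lie on the other strand.

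The receptors fell together, by unequal amounts. Tgfbr1, the kinase that phosphorylates SMAD2 and SMAD3, had 3522, 3586 and 3569.6 in the Scr cultures, compared with 1905, 2078 and 2100.1 after knockout. The Scr libraries were close to each other, and all MICT1 KO libraries lay far below them. The mean fell 1.76-fold, from 3559 ± 33.4 to 2028 ± 107 (SD, n = 3), with a log2 fold change of -0.81 (SE 0.058; adjusted p = 1.62e-10, limma-trend). Its change was larger in size than that of 80.8% of all genes tested. Tgfbr1 lies at chr4:47353222-47414931 on the plus strand.

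Tgfbr3, the betaglycan co-receptor, had 9078, 9095 and 9523 in the Scr cultures, compared with 6811, 7173 and 7247 after knockout. No MICT1 KO library reached the Scr range. Its mean was 9232 ± 252 in Scr and 7077 ± 233 in MICT1 KO libraries (SD, n = 3), 1.30-fold lower, with a log2 fold change of -0.38 (SE 0.052; adjusted p = 2.15e-06, limma-trend). Tgfbr2, the receptor that binds TGF-beta first, had 1295, 1228 and 1372 in the Scr cultures, compared with 1072, 1004 and 1192 after knockout. Here the highest MICT1 KO value came close to the lowest Scr value without passing it. The mean of Tgfbr2 fell from 1298 ± 71.8 to 1089 ± 95.2 (SD, n = 3), with a log2 fold change of -0.26 (SE 0.076; adjusted p = 0.00694, limma-trend). Tgfbr3 spans chr5:107106570-107289629 and Tgfbr2 spans chr9:116084293-116175360, both on the minus strand. Gm43422, Gm43423 and Gm42900 are annotated across Tgfbr3 on the same strand, and the pseudogene Gm8145 on the other. How far these genes add to the values of Tgfbr3 was not tested.

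Smad3, 1 of the receptor-activated SMADs that carry the signal to the nucleus, had 836, 887 and 912 in the Scr cultures, compared with 559, 622 and 576 after knockout. The groups were well apart compared with the spread inside each of them. Its mean fell from 878 ± 38.8 to 586 ± 32.5 (SD, n = 3), with a log2 fold change of -0.58 (SE 0.082; adjusted p = 3.62e-06, limma-trend). Smad2, the other of them, had 1346, 1355 and 1311 in the Scr cultures, compared with 1098, 1127 and 1142 after knockout. The spread was narrow on both sides and there was no overlap. Smad2 fell 1.19-fold, from 1337 ± 23.6 to 1123 ± 22.4 (SD, n = 3), with a log2 fold change of -0.25 (SE 0.066; adjusted p = 0.00263, limma-trend). Smad3 lies at chr9:63646767-63757994 on the minus strand and Smad2 at chr18:76241580-76310963 on the plus strand.

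Smad7, the inhibitory SMAD and a classic feedback target of TGF-beta itself, had 2156, 2443 and 2260.1 in the Scr cultures, compared with 2883, 3148 and 2952 after knockout. All MICT1 KO libraries were above all Scr libraries. The mean rose 1.31-fold, from 2286 ± 145 to 2994 ± 138 (SD, n = 3), with a log2 fold change of 0.39 (SE 0.062; adjusted p = 1.69e-05, limma-trend). It lies at chr18:75367529-75395935 on the plus strand. Smad6, the inhibitory SMAD better known for bone morphogenetic protein signaling, went the other way, from 2257 ± 63.7 to 1928 ± 92.2 (SD, n = 3; log2 fold change -0.23, adjusted p = 0.00313, limma-trend). Smad4, the shared partner of SMAD2 and SMAD3, had 2603 ± 105 in Scr and 2532 ± 204 in MICT1 KO libraries (SD, n = 3; log2 fold change -0.04, adjusted p = 0.596, limma-trend). Smad4 and Smad6 belong to the pathway list and were singled out after their values were seen.

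Levels of different genes were compared per length, as RPKM, the value divided by the exon length and by the sum of the library. In Scr libraries the order of the mean RPKM was Tgfbr3 (86.2), Inhba (58.0), Tgfbr1 (33.3), Smad7 (30.9), Tgfbr2 (9.69), Smad3 (9.68), Smad2 (9.31), Tgfb1 (6.30), Tgfb3 (2.32) and Tgfb2 (0.583). The libraries of Tgfbr2, Smad3 and Smad2 overlapped, so these 3 genes cannot be ordered. In MICT1 KO libraries the mean RPKM of Inhba (128) was above that of Tgfbr3 (66.3), and that of Smad7 (40.6) was above that of Tgfbr1 (19.0). After these came Tgfb1 (9.46), Tgfbr2 (8.15), Smad2 (7.84), Smad3 (6.48), Tgfb3 (3.33) and Tgfb2 (0.733), with overlap between Tgfbr2 and Smad2. Inhba and Smad7 thus each stood above a receptor in MICT1 KO that they stood below in Scr libraries. The place of Tgfb1 depends on the length used. With its longest transcript in place of all its exons, its mean RPKM would be 12.4 in Scr libraries, above that of Tgfbr2 (9.80).

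**Figure D2:**
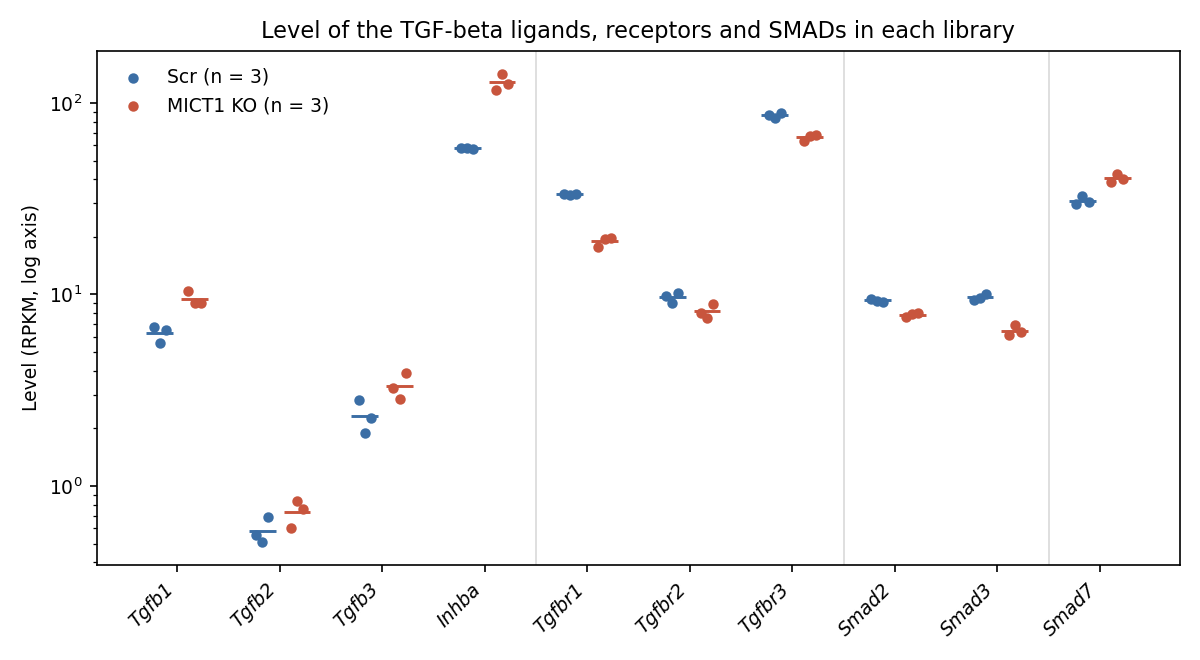
RPKM (log axis) of each gene in each library, with bars at the group means of 3 Scr and 3 MICT1 KO libraries. Inhba and Tgfbr3 are the highest genes and Tgfb2 is the lowest, and Inhba passes Tgfbr3 in the MICT1 KO libraries.

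Summed by role, the RPKM of Tgfb1 to Tgfb3 rose from 9.20 ± 1.09 to 13.5 ± 0.775 (SD, n = 3), 1.47-fold, while that of the receptors was 1.38-fold lower in MICT1 KO, at 93.4 ± 4.03 against 129 ± 3.34. The sum of Smad2 and Smad3 was 1.33-fold lower, at 14.3 ± 0.526 against 19.0 ± 0.142 RPKM. Each of these 3 sums was without overlap between the groups (exact permutation test, two-sided, p = 0.1, the smallest p that 3 against 3 libraries can give). The threshold of 0.05 therefore could not be reached in this design.

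The make-up of each role showed where the falls were unequal. Tgfbr1 made up 25.9%, 26.3% and 25.2% of the summed receptor RPKM in the Scr cultures, compared with 19.9%, 20.7% and 20.4% after knockout. Tgfbr3 made up 66.7% ± 0.314 and 70.9% ± 0.524, and Tgfbr2 7.499% ± 0.282 and 8.73% ± 0.662 (SD, n = 3). Tgfbr1 thus made up a smaller part of the summed receptor RPKM in all 3 MICT1 KO libraries. Smad2 and Smad3 had near-equal shares in Scr libraries, with Smad2 at 49.0% ± 1.42, and in MICT1 KO libraries Smad2 made up 54.8% ± 1.22 (SD, n = 3). The groups did not overlap for any of these receptor and SMAD shares (exact permutation test, p = 0.1, and 0.16 after Benjamini-Hochberg adjustment over 8 shares). Among the TGF-beta ligands, Tgfb1 made up 68.6% ± 1.60 in Scr and 70.0% ± 3.70 in MICT1 KO libraries (SD, n = 3; exact permutation test, p = 0.7). The shares of Tgfb2 (6.35% and 5.47%, exact permutation test, p = 0.5) and Tgfb3 (25.04% and 24.6%, p = 0.7) also overlapped between the groups.

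**Figure D3:**
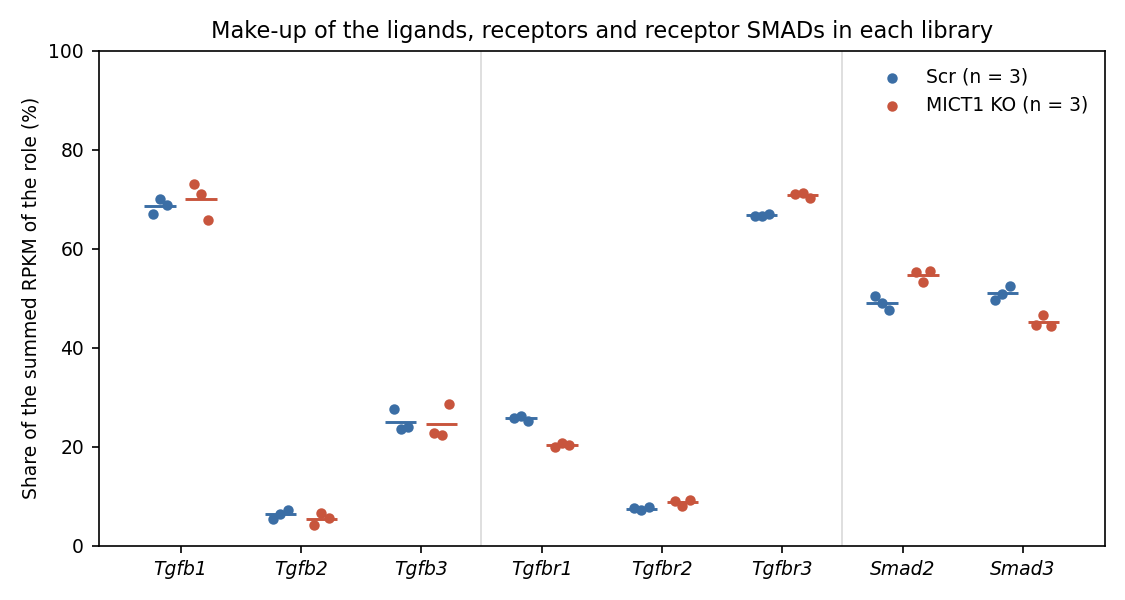
Share (%) of each gene in the summed RPKM of its role in each library, with bars at the group means of 3 Scr and 3 MICT1 KO libraries. The Tgfbr1 and Smad3 shares are lower and the Tgfbr3 and Smad2 shares higher in every MICT1 KO library, while the ligand shares overlap.

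The other genes of the pathway were taken from a list of 69 symbols in 5 roles, of which 63 were tested. Of these 63, 26 were higher and 21 lower in MICT1 KO (limma-trend, adjusted p under 0.05), and the median log2 fold change was 0.06. Itgb6, Nrros, Mstn, Acvr1c and Foxh1 were not in the table, and Ctgf is an older symbol of the listed Ccn2. These counts stand beside the 28.5% and 28.3% of all genes tested that were higher and lower.

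Of 9 latency and activation genes, 5 rose and 3 fell, with a median log2 fold change of 0.67. Thbs1, which encodes thrombospondin 1, an activator of latent TGF-beta, rose 5.36-fold, from 2936 ± 213 to 15731 ± 1641 (SD, n = 3; log2 fold change 2.42, adjusted p = 3.93e-17, limma-trend). Lrrc32, the product of which (GARP) tethers latent TGF-beta to the cell surface, rose 3.005-fold, from 1159.9 ± 121 to 3485 ± 324. Of the 4 latent TGF-beta binding proteins of the matrix, 3 rose, Ltbp4 by 1.95-fold, Ltbp1 by 1.86-fold and Ltbp2 by 1.60-fold. The remaining one, Ltbp3, fell 1.55-fold, from 9236 ± 76.7 to 5944 ± 333. Itgb8, an integrin chain that activates latent TGF-beta, fell 2.12-fold at low values of 117 ± 23.7 and 55.0 ± 1.74, and Furin, the protease that cleaves the TGF-beta precursor, fell 1.12-fold. Itgav, the integrin partner of Itgb8, did not pass the test (adjusted p = 0.917, limma-trend).

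Of 9 further ligands and antagonists, 6 rose and 1 fell, with a median log2 fold change of 1.17. Dcn, which encodes decorin, a matrix proteoglycan that binds TGF-beta, rose 26.6-fold, from 365 ± 75.3 to 9707 ± 133 (SD, n = 3; log2 fold change 4.75, adjusted p = 5.87e-19, limma-trend). Gdf15 rose 6.54-fold, from 93.4 ± 33.5 to 611 ± 80.6, and Gdf11, a ligand of activin receptors, rose 3.82-fold, from 119.9 ± 6.43 to 459 ± 53.5. Fst, which encodes the activin antagonist follistatin and was singled out after its values were seen, rose 1.43-fold, from 1119.99 ± 73.6 to 1600.4 ± 7.85. Inhbb, which encodes another activin beta subunit, was the only gene of this role to fall, from 55.0 ± 11.5 to 24.0 ± 10.2, so that Inhba and Inhbb moved in opposite directions. Inha and Lefty1 did not pass the test.

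Of 7 other receptors and co-receptors, 2 rose and 2 fell, about the shares of all genes tested (28.5% higher and 28.3% lower). The median log2 fold change was -0.29. Of the receptors of activin A, Acvr1b and Acvr2a fell and Acvr2b did not pass the test. Acvr1b fell 2.81-fold, from 1219 ± 75.2 to 434 ± 21.8 (SD, n = 3; log2 fold change -1.49, adjusted p = 2.73e-12, limma-trend), and Acvr2a fell 1.48-fold, from 626 ± 13.2 to 424 ± 25.2. Acvr2b had a log2 fold change of -0.29 (adjusted p = 0.117, limma-trend). Bambi, a pseudoreceptor that dampens TGF-beta signaling, lay at the threshold, with 229 ± 22.7 and 180.1 ± 26.3 and no overlap (SD, n = 3; log2 fold change -0.35, adjusted p = 0.0501, limma-trend). It passed in several other fits, so that 3 genes of this role were then lower. Of the co-receptors, Eng (endoglin) was 3.17-fold higher, from 227 ± 31.3 to 719.6 ± 81.3, and Cd109, which dampens TGF-beta signaling, was 2.29-fold higher, from 921 ± 47.7 to 2104 ± 149.

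Of 19 SMAD partners and regulators, 2 rose and 11 fell, with a median log2 fold change of -0.18. The largest falls were those of the ubiquitin ligases Wwp1 (1.68-fold, from 1189 ± 58.6 to 707 ± 54.2) and Smurf2 (from 1554 ± 68.7 to 1037 ± 67.2), which mark receptors and SMADs for degradation. Ski, a repressor of SMAD transcription, fell 1.39-fold, while its relative Skil had 4576 ± 113 and 4572 ± 385 (SD, n = 3; adjusted p = 0.956, limma-trend). Both genes that rose moved with single libraries. Ldlrad4 rose 2.47-fold at low values, 18.4 ± 6.25 and 45.5 ± 15.5, and without MICT1 KO replicate 1 its log2 fold change went from 1.26 to 1.03 (adjusted p = 0.0596, limma-trend), leaving 1 gene of this role higher. Tgif1, a SMAD co-repressor, had a log2 fold change of 0.46, and 0.29 without Scr replicate 3, still with an adjusted p of 0.0216 (limma-trend).

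Of 19 textbook TGF-beta target genes, 11 rose and 4 fell, with a median log2 fold change of 0.37. The largest rises were in Ccn2 (connective tissue growth factor), 11.1-fold from 488 ± 55.1 to 5400 ± 176 (SD, n = 3; log2 fold change 3.47, adjusted p = 5.87e-19, limma-trend), Fn1 (fibronectin), 3.77-fold, and Lox (lysyl oxidase), 2.86-fold. Bhlhe40 fell 2.53-fold and Acta2, the smooth muscle actin of contractile fibroblasts, fell 2.53-fold, from 114 ± 8.34 to 44.8 ± 7.56. Tgfbi, named for its induction by TGF-beta, fell 1.35-fold, from 1016 ± 164 to 754 ± 42.9. Of the 3 collagen genes listed, Col1a1 rose 1.70-fold, from 17955 ± 585 to 30595 ± 2507, and Col1a2 and Col3a1 did not pass the test. Tagln and Cdkn1a did not pass it either. Pmepa1, a feedback inhibitor that TGF-beta induces, counted with the SMAD partners and singled out after its values were seen, fell 1.14-fold. These genes answer to other signals as well, and they did not move in 1 direction.

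**Figure D4:**
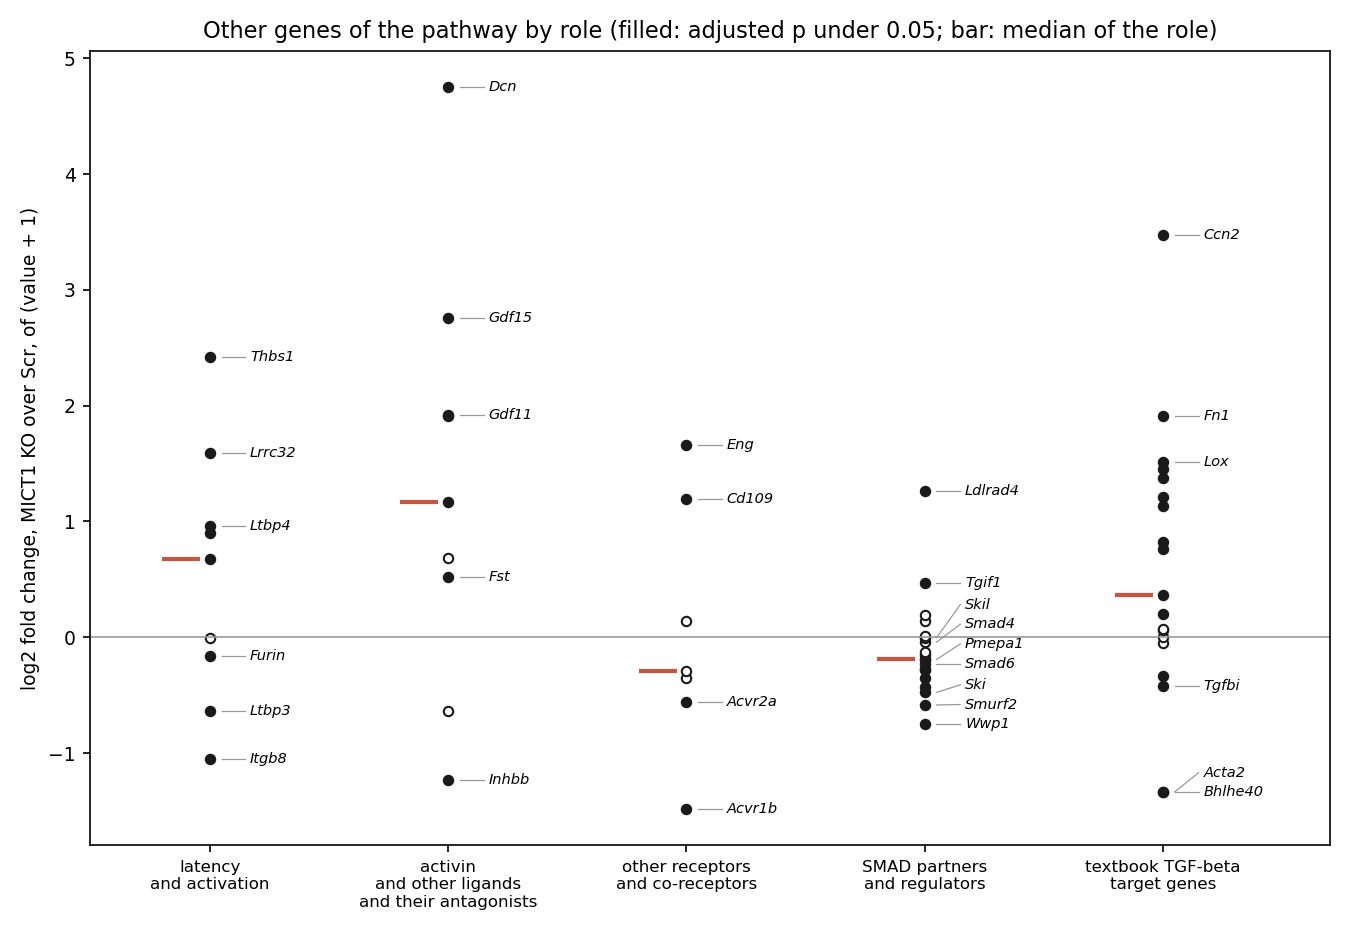
Log2 fold change of the 63 other pathway genes tested, on the log2(value + 1) scale, MICT1 KO over Scr, by role, with 3 libraries per group. Filled points have an adjusted p under 0.05 and short bars are medians of the roles. The activin and antagonist genes have the highest median (1.17), the other receptors the lowest (-0.29), and Gdf11 covers the point of Fstl1.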

How the data were processed

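RNA-seq libraries of 3 Scr and 3 MICT1 KO cultures were grouped by their labels. The authors deposited a normalized signal per gene and library. The submitters' processing notes name Partek, STAR and DESeq2 and the builds GRCm38 and mm10, while the counter, annotation and normalization are not given in the sources used here. In each library a step common to the low values was searched for, and its inverse (0.949 to 1.08) was taken as the size factor. Whole multiples of the step (tolerance 0.01) made up 88.8% to 90.3% of values under 20. The signal was therefore taken as estimated reads over that factor. The factor was not compared with one computed in another way. Only values above 0 are listed, so a gene absent from a library would not appear. The signal is not a count, and no count test was run.

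After a filter (10 or more in 3 or more libraries, which 12507 genes passed), log2(value + 1) was fitted by limma-trend (limma 3.58.1, R 4.3.3), with Benjamini-Hochberg adjustment and a threshold of 0.05. Fold changes of low genes are understated on this scale, and folds are ratios of group means. The functions were tested on simulated data. RPKM and CPM were computed from the library sums, with exon lengths of GENCODE vM21 for 13142 genes (98.9%, 212 by an older symbol). Shares were compared with two-sided exact permutation tests.

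The TGF-beta genes and all lists were chosen with earlier results of these data known. All TGF-beta genes were named, and of each pathway role the 3 largest rises and falls with an adjusted p under 0.05; Smad4, Smad6, Skil, Pmepa1, Fst, Ltbp1, Ltbp2, Col1a1 and Bambi, and genes named only as not passing, were added after their values were seen. Alternatives were other scalings (library size, TMM and, added after seeing the data, library size without Rn45s), pseudocounts of 0.5 and 5, no filter or a filter at 4 CPM, limma-voom, the replicate number as a block, other lengths and each library left out in turn. Replicates are 3 cultures per group of one line, and the labels do not say how separate they were, so p-values measure only the spread between these cultures. The methods describe stranded total RNA libraries, and the labels name a service provider for library making. Some single genes are not reported here.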

Additional observations from a re-analysis of the deposited data

How the results depend on the processing

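Under every scaling, pseudocount, filter and model tried, 9 of the 10 TGF-beta genes passed (4 higher and 5 lower), and 8 to 9 did when a single library was dropped (3 to 4 higher, 5 lower), the loss being Tgfb3. All genes tested gave 6340 to 6596 calls with a library left out and 6728 to 7157 otherwise. The count of SMAD partners that were higher was 1 in place of 2 with the filter at 4 CPM, which removes Ldlrad4, and 1 to 2 with a library left out. The count of those that were lower, 11 in the fit reported, was 9 to 11 with a library left out and 10 to 11 otherwise. With a library left out, log2 fold changes ranged from 0.39 to 0.65 for Tgfb3, 0.96 to 1.53 for Ldlrad4, 0.29 to 0.66 for Tgif1, -0.072 to 0.043 for Skil and -0.10 to 0.015 for Smad4, the last 2 changing sign without passing in any of these fits. The difference in share (MICT1 KO minus Scr) ranged from -0.16 to 3.41 percentage points for Tgfb1 and from -2.48 to 0.83 for Tgfb3 and changed sign, while the receptor and SMAD shares kept theirs. The cause of these moves was not tested beyond the library or filter concerned. Replicate numbers did not pair the libraries (correlations of the deviations of same-numbered libraries -0.02, -0.02 and 0.06, and not every library closest to its own number), and with the replicate block 9 TGF-beta genes and 7055 of all genes were called. Bambi, not called in the fit reported, was called lower with the replicate block, a pseudocount of 0.5, the filter at 4 CPM, limma-voom, and without Scr replicate 3 or MICT1 KO replicate 1, giving 3 other receptors lower in place of 2, and no other pathway role changed its count with the block. Depth limits genes with low values, among them Tgfb2, Tgfb3, Itgb8, Inhbb, Ldlrad4, Gdf15, Gdf11 and Acta2.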
